A study of Homo sapiens with 27 samples.

Results

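The genes examined here were 9 components of cytokine signalling through gp130, STAT3 and the SOCS proteins, out of 44852 genes in the count table. They were LIF, CNTFR, LIFR, IL6ST, STAT3, SOCS3, SOCS1, SOCS2 and CISH. The genes were matched by Ensembl gene identifier to these symbols, and they were chosen by their place in the pathway and, in part, by the measured level of SOCS3 at day 32, which on LN523 exceeded that on LN521. That comparison is therefore given below as a description without a test. All 9 genes had counts in each of the 27 libraries, the lowest being 20 counts of CISH, so no member was lost to the filter on low counts.

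Ligands of the interleukin 6 family act through gp130, the signalling receptor chain encoded by IL6ST. Ciliary neurotrophic factor (CNTF) binds its own receptor CNTFR, which then recruits gp130 and the LIF receptor encoded by LIFR. JAK kinases bound to these chains phosphorylate STAT3, which enters the nucleus and activates genes that include SOCS3, and SOCS proteins in turn dampen the receptor complex. In retina this pathway is known from Müller glia and from the action of CNTF on photoreceptor precursors.

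Bulk RNA-seq libraries came from H1, an established line of human embryonic stem cells, plated on LN523, LN323 or LN521 laminin matrices and collected at days 2, 22 and 32, with 3 libraries in each of the 9 groups. The label of the LN323 cultures names that isoform alone and those of the LN523 and LN521 cultures add LN323, whereas the study's methods combine LN523 and LN323 with LN521, so each matrix is called after its leading isoform. The day 2 cells had been kept in stem cell medium. The later cultures had received neural induction medium with the kinase inhibitors SB431542 and CKI-7, followed by photoreceptor differentiation medium with CNTF (10 ng/ml), BDNF (10 ng/ml), retinoic acid (0.5 µM) and the gamma-secretase inhibitor DAPT (10 µM). No culture of the same age lacked CNTF, so the stage of the cells and the change of medium cannot be told apart. Total counts per library ranged from 25620624 to 47340990. The sources used here do not say whether replicates came from separate cultures, and p-values then measure only the spread between these samples. Levels are given as CPM, counts relative to library size after TMM scaling, and as TPM where genes are compared with each other.

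Markers of the labelled cells were examined before the genes of interest, and their part in the results below was not tested. At day 2, the summed level of 5 pluripotency markers was 6219 to 7366 TPM and that of 5 retinal progenitor markers was 2.21 to 5.30 TPM. At days 22 and 32, retinal progenitor markers reached 623 to 2126 TPM, while 4 photoreceptor precursor markers summed to 4.66 to 12.1 TPM at day 22 and 6.04 to 76.7 TPM at day 32. Over days 22 and 32, 6 markers of pigment epithelium summed to 447 to 2242 TPM and 5 of astrocytes and Müller glia to 193 to 303 TPM. Over the same days, 5 markers of surface ectoderm summed to 20.9 to 758 TPM and 3 of neural crest to 12.7 to 43.7 TPM. The 4 markers of blood and endothelial cells summed to 1.09 to 7.72 TPM. The glial sum was already 142 to 244 TPM at day 2 and was mostly GLUL, with a mean of 217 TPM over the 27 libraries. S100B, the next highest of the glial markers, had a mean of 5.40 TPM. A few libraries stood apart. LN521 day 22 replicate 1 held 376 TPM of pluripotency markers against 48.1 to 79.5 TPM in the other libraries of that day. Replicate 2 of LN523 and of LN323 held more of the 5 mesenchyme markers than the other libraries, with 2318 and 1613 TPM at day 22 and 3997 and 6713 TPM at day 32. In bulk samples, a lower level may reflect fewer cells of a type or less RNA per cell, which cannot be told apart.

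STAT proteins bind DNA sites of the form TTCNNNGAA, and the 250 bases before each annotated start were searched for it (RefSeq, GRCh38.p14, read on the strand of the gene; the motif reads the same on both strands). Windows were given for 7 of the 9 genes, 10 windows in all, with none for LIF and SOCS2. Of 35116 windows across all genes, 6.57% held at least 1 match, 0.356% held at least 2 and 5 windows (0.0142%) held at least 4. CISH was among those 5 windows, and 2 of the 3 LIFR windows held 1 match each. No match was found in the windows of SOCS3, SOCS1, STAT3, IL6ST or CNTFR, which says only that these letters were not in those stretches. The SOCS3 windows were chr17:78360926-78361175 and chr17:78359668-78359917. Its GENCODE span, on the minus strand, begins at 78360077. The bases just before that position lay in neither window and were not searched. The CNTFR window (chr9:34589725-34589974) lay within its GENCODE span, which begins at 34590140 on the minus strand. The CISH window (chr3:50611775-50612024, minus strand) is shown because it was the most densely matched among the genes, and the LIFR stretches (chr5:38595552-38595580 and chr5:38557631-38557659, minus strand) for contrast, with the matches in capitals. A match is a description of the sequence and not evidence of binding.
CISH: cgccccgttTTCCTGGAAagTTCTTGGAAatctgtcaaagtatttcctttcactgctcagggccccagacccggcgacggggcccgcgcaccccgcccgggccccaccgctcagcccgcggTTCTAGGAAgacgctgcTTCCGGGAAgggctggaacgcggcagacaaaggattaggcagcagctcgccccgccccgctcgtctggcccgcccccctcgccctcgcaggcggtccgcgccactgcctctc
LIFR, stretch A: ccattactagTTCCTTGAAccacaatcca
LIFR, stretch B: gctttggagtTTCATCGAAaggtctttaa
In the CISH window the matches began 241, 230, 129 and 112 bases before the start. In the LIFR windows they began 165 and 182 bases before the respective starts.

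Between day 2 and day 22, CNTFR, IL6ST, SOCS3, SOCS2 and CISH rose on all 3 matrices. LIFR fell on LN523 and LN521, SOCS1 fell on LN523 and LN323, and LIF rose on LN523. STAT3 did not pass the test on any matrix. In counts, 8 of 9 genes changed on LN523 (6 higher, 2 lower), 6 on LN323 (5 higher, 1 lower) and 6 on LN521 (5 higher, 1 lower), by edgeR's quasi-likelihood test with an adjusted p under 0.05 over all genes tested. The corresponding background over 44852 genes was 21.7% on LN523 (11.5% higher, 10.2% lower), 22.7% on LN323 (11.8% and 10.9%) and 18.9% on LN521 (10.8% and 8.09%). That background takes in every gene with more than 1 count in sum. With the filterByExpr filter on low counts, 10707, 11149 and 9296 of 25682 genes were called on LN523, LN323 and LN521, a larger share. Groups without overlap made up 18.3% of genes in the higher and 17.5% in the lower direction on LN523, 19.2% and 19.6% on LN323, and 17.9% and 17.5% on LN521. The median log2 fold change of the 9 genes was 1.58, 1.42 and 1.30 on LN523, LN323 and LN521, beside 0.04, 0.02 and 0.12 over all genes with at least 1 CPM. Between-gene spread was wide, from a rise of 64.0-fold for CNTFR on LN521 to a fall of 5.72-fold for SOCS1 on LN323.

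**Figure D1:**
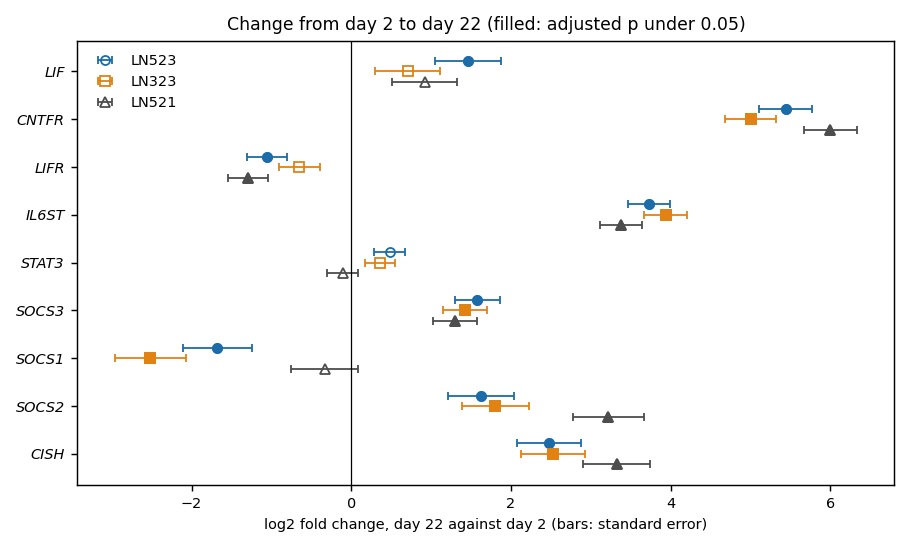
Log2 fold change of each gene from day 2 to day 22 (horizontal axis) by matrix (colour and symbol), with bars for the standard error and filled symbols for an adjusted p under 0.05. CNTFR and IL6ST lie farthest to the right on every matrix, from 3.38 to 6.00, and SOCS1 on LN323 lies farthest to the left at -2.52.

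LIF, a cytokine that binds LIFR and gp130 (chromosome 22, 30240453 to 30246759, GRCh38), was a low expressed member. On LN523 its level was 3.10, 3.02 and 2.82 CPM at day 2 and 13.0, 3.14 and 10.4 CPM at day 22. On LN323 it was 5.39, 3.14 and 3.31 CPM at day 2 and 9.44, 2.23 and 8.67 CPM at day 22. On LN521 it was 2.73, 2.92 and 3.26 CPM at day 2 and 4.74, 5.23 and 6.97 CPM at day 22. Replicate 2 at day 22 was the low library on LN523 and LN323, the same 2 libraries that were high in mesenchyme markers, and on LN323 the days overlapped. The rise passed the test on LN523 (log2 fold change 1.46, standard error 0.41, edgeR adjusted p = 0.00614), but not after replicate 1 or replicate 3 was left out (1.09, adjusted p = 0.157, and 1.23, adjusted p = 0.153). The log2 fold change was 0.71 on LN323 (edgeR adjusted p = 0.259) and 0.92 on LN521 (edgeR adjusted p = 0.119).

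CNTFR, the receptor of the CNTF that was added to the medium (chromosome 9, 34551432 to 34590140), had the largest rise of the 9 genes on each matrix. At day 2 it was at 1.90, 0.92 and 1.70 CPM on LN523, 2.31, 2.08 and 1.34 CPM on LN323, and 1.73, 0.88 and 0.95 CPM on LN521. At day 22 it was at 80.4, 32.6 and 85.9 CPM on LN523, 75.9, 35.7 and 80.1 CPM on LN323, and 88.3, 58.9 and 77.0 CPM on LN521. No day 22 library came near any day 2 library, and replicate 2 was the lowest at day 22 on each matrix. The log2 fold change was 5.44 (standard error 0.33, edgeR adjusted p = 3.5e-19) on LN523, 5.00 (0.32, adjusted p = 2.6e-18) on LN323 and 6.00 (0.34, adjusted p = 2.29e-20) on LN521. Its median TPM over the 9 libraries of a day went from 2.79 at day 2 to 149 at day 22, the highest of the 9 genes at that day.

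LIFR, the signalling partner of gp130 for LIF and CNTF (chromosome 5, 38474668 to 38608354), went the other way. The LN523 libraries were at 57.0, 52.4 and 85.2 CPM at day 2 and 26.5, 39.3 and 29.1 CPM at day 22. The LN323 libraries were at 44.7, 62.3 and 51.6 CPM at day 2 and 43.1, 29.6 and 27.5 CPM at day 22. The LN521 libraries were at 63.3, 66.6 and 64.8 CPM at day 2 and 29.6, 18.9 and 30.2 CPM at day 22. The days did not overlap on any matrix, although the highest LN323 library at day 22 was close to the lowest at day 2. LIFR fell by 1.06 on the log2 scale on LN523 (edgeR adjusted p = 0.00101) and fell by 1.29 on LN521 (edgeR adjusted p = 7.8e-05). On LN323 the log2 fold change was -0.65 (standard error 0.25, edgeR adjusted p = 0.0547). Without replicate 3 the LN523 fold change was -0.75 and no longer passed (edgeR adjusted p = 0.122), nor did it pass with limma on log2 TPM. A share of 5.17% of the exonic bases of LIFR lies opposite the exons of LIFR-AS1, whose reads cannot be told apart unless strand was used in counting.

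IL6ST, which encodes gp130 itself (chromosome 5, 55935095 to 55995022), rose by more than 10-fold on each matrix. At day 2 it was at 11.1, 20.2 and 12.3 CPM on LN523, 12.9, 9.60 and 16.9 CPM on LN323, and 12.3, 16.9 and 7.92 CPM on LN521. At day 22 it was at 165, 177 and 230 CPM on LN523, 267, 165 and 172 CPM on LN323, and 124, 103 and 156 CPM on LN521. Each day 22 library was well above every day 2 library, with the LN521 libraries lowest among those of day 22. The rise was 13.2-fold on LN523 (log2 fold change 3.73, standard error 0.27, edgeR adjusted p = 1.85e-16), 15.3-fold on LN323 (3.94, 0.27, adjusted p = 3.15e-17) and 10.4-fold on LN521 (3.38, 0.26, adjusted p = 3.96e-15). The receptor chains of the complex therefore differed in direction, with CNTFR and IL6ST higher and LIFR lower at day 22 on LN523 and LN521.

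STAT3, the transcription factor downstream of gp130 (chromosome 17, 42313324 to 42388540), was already present at day 2, at 53.1 to 63.6 TPM. The LN523 libraries were at 143, 151 and 135 CPM at day 2 and 159, 219 and 221 CPM at day 22. The LN323 libraries were at 163, 146 and 174 CPM at day 2 and 232, 165 and 224 CPM at day 22. The LN521 libraries were at 105, 137 and 151 CPM at day 2 and 129, 105 and 133 CPM at day 22. The LN523 libraries of day 22 were all above those of day 2, whereas the days overlapped on the other matrices. The log2 fold change was 0.48 on LN523 (standard error 0.19, edgeR adjusted p = 0.0685), 0.36 on LN323 (edgeR adjusted p = 0.217) and -0.11 on LN521 (edgeR adjusted p = 0.824). On the log2(TPM + 1) scale tested with limma, it was 0.78 on LN523 (adjusted p = 0.00189) and 0.68 on LN323 (adjusted p = 0.00516), where the median over genes with at least 1 CPM moved to 0.31 on both matrices. On LN523 STAT3 also passed on counts with DESeq2 (0.46, adjusted p = 0.0382), with the filterByExpr filter (0.48, edgeR adjusted p = 0.0335) and without LN521 day 22 replicate 1 (0.62, edgeR adjusted p = 0.0144). The call for STAT3 thus depends on the tool, the filter and the scale.

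SOCS3, the SOCS protein that binds gp130 and the JAK kinases (chromosome 17, 78356778 to 78360077), rose on each matrix. On LN523 it was at 33.4, 50.1 and 25.9 CPM at day 2 and 87.2, 111 and 137 CPM at day 22. On LN323 it was at 35.2, 29.6 and 80.2 CPM at day 2 and 142, 84.1 and 152 CPM at day 22. On LN521 it was at 14.6, 19.7 and 19.8 CPM at day 2 and 49.6, 27.2 and 57.3 CPM at day 22. The days did not overlap on any matrix, and the highest LN521 library of day 22 was below the lowest library on LN523 or LN323. The rise was 2.99-fold on LN523 (log2 fold change 1.58, standard error 0.28, edgeR adjusted p = 1.14e-05), 2.68-fold on LN323 (1.42, 0.28, adjusted p = 5.62e-05) and 2.46-fold on LN521 (1.30, 0.28, adjusted p = 0.000278). All 11 alternatives of the analysis kept these calls on each matrix. The difference between matrices in this rise did not pass, with a log2 value of 0.28 for LN523 against LN521 (95% interval -0.48 to 1.03) and 0.12 for LN323 against LN521 (-0.64 to 0.88).

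SOCS1, a SOCS protein that blocks JAK kinase activity and is known for its role downstream of interferons (chromosome 16, 11254417 to 11256204), moved opposite to SOCS3. The LN523 libraries were at 9.87, 25.1 and 9.26 CPM at day 2 and 3.15, 9.73 and 1.86 CPM at day 22. The LN323 libraries were at 23.7, 12.9 and 34.0 CPM at day 2 and 4.15, 8.31 and 2.91 CPM at day 22. The LN521 libraries were at 10.1, 7.96 and 7.68 CPM at day 2 and 9.67, 7.30 and 4.28 CPM at day 22. Replicate 2 held the highest level at day 22 on LN523 and LN323, where the days overlapped on LN523 but not on LN323. SOCS1 fell by 1.68 on the log2 scale on LN523 (standard error 0.43, edgeR adjusted p = 0.00226) and fell by 2.52 on LN323 (standard error 0.45, edgeR adjusted p = 1.16e-05). On LN521 the log2 fold change was -0.34 (95% interval -1.16 to 0.49, edgeR adjusted p = 0.706). Without replicate 3, the LN523 call was lost (-1.46, edgeR adjusted p = 0.0548).

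SOCS2, an inhibitor known for restraining growth hormone signalling (chromosome 12, 93569814 to 93583487), rose on each matrix. On LN523 it was at 14.3, 22.8 and 7.56 CPM at day 2 and 34.6, 67.9 and 39.6 CPM at day 22. On LN323 it was at 18.6, 5.91 and 22.5 CPM at day 2 and 68.2, 41.0 and 47.6 CPM at day 22. On LN521 it was at 5.23, 5.89 and 3.63 CPM at day 2 and 21.0, 28.7 and 106 CPM at day 22. The days did not overlap, and LN521 replicate 3 at day 22 was the highest of the 27 libraries. The log2 fold change was 1.63 on LN523 (standard error 0.41, edgeR adjusted p = 0.00206), 1.80 on LN323 (0.42, adjusted p = 0.000621) and 3.22 on LN521 (0.45, adjusted p = 1.04e-07). Without replicate 3 the LN521 value was 2.15. The exons of SOCS2 share 4.28% of their bases with the opposite-strand gene SOCS2-AS1, so its counts are uncertain to that extent if strand was not used.

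CISH, the founding SOCS family gene and a known target of STAT5 (chromosome 3, 50606489 to 50611774), was the lowest expressed of the inhibitors at day 2, at 0.37 to 1.94 TPM. The LN523 libraries were at 2.99, 2.37 and 0.89 CPM at day 2 and 9.75, 15.0 and 9.38 CPM at day 22. The LN323 libraries were at 2.36, 1.04 and 3.10 CPM at day 2 and 12.6, 14.4 and 11.9 CPM at day 22. The LN521 libraries were at 1.20, 1.58 and 0.53 CPM at day 2 and 9.28, 12.9 and 10.0 CPM at day 22. Every day 22 library was above every day 2 library. The rise was 5.54-fold on LN523 (log2 fold change 2.47, standard error 0.40, edgeR adjusted p = 2.31e-06), 5.77-fold on LN323 (2.53, 0.40, adjusted p = 1.35e-06) and 9.99-fold on LN521 (3.32, 0.42, adjusted p = 8.35e-09). This is the gene whose upstream window held 4 matches to the STAT motif. It overlaps MAPKAPK3 on the opposite strand over 4.31% of its exonic bases. MAPKAPK3 had 2180 to 5213 counts per library, against 20 to 115 for CISH at day 2 and 328 to 632 at day 22. The counts of CISH, above all those of day 2, are therefore uncertain if strand was not used in counting.

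Whether a change differed between matrices was tested as an interaction on the 27 libraries. No member passed in the 3 contrasts of matrices by edgeR or by DESeq2, beside 0.0201% of genes for LN323 against LN521, 0.00446% for LN523 against LN521 and 0% of genes between the other 2 matrices. At an unadjusted p under 0.05, 3, 3 and 0 of the 9 genes were counted in the same order, beside 2383, 2085 and 949 of 44852 genes. For SOCS1 the log2 difference in change between LN323 and LN521 was -2.18 (standard error 0.60, edgeR adjusted p = 0.235). For SOCS2 the difference was -1.42 between LN323 and LN521 and -1.59 between LN523 and LN521 (edgeR adjusted p = 0.827 and 0.868). These values depended on single replicates. Without replicate 2, SOCS1 passed at -2.71 (edgeR adjusted p = 0.00221) and SOCS2 passed in both contrasts, at -2.14 for LN323, and without replicate 1 SOCS2 again passed in both, at -1.89 for LN523. The share of all genes called rose with them, to 1.67% for LN323 and 0.854% for LN523 against LN521 without replicate 2, and to 0.189% and 0.122% without replicate 1. Without replicate 3, in contrast, the SOCS2 differences were -0.01 and -0.69.

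The remaining genes of the pathway were taken from lists by role. The counts of each list below stand beside 21.7%, 22.7% and 18.9% of all genes called on LN523, LN323 and LN521. With the filterByExpr filter, these were 10707, 11149 and 9296 of 25682 genes. Whether any list differed from these shares was not tested. Of 8 further gp130 ligands, 2 rose on LN523 and on LN323, and 1 rose and 1 fell on LN521, with the others not passing. CTF1, cardiotrophin 1, rose on each matrix, with log2 fold changes of 2.29, 2.41 and 2.75 on LN523, LN323 and LN521. CLCF1, a ligand that signals through CNTFR, rose on LN523 (3.20) and LN323 (3.08) and had a value of 1.66 on LN521 (edgeR adjusted p = 0.0544). IL11 fell on LN521 by 1.60. CNTF itself was at a mean of 0.82 TPM over the 27 libraries and did not pass, while OSM, IL6 and IL27 were listed at 0 in 20, 21 and 25 of 27 libraries. Of 4 further receptors of the family, IL11RA rose on each matrix (2.73, 2.89 and 1.92) and IL6R, at a mean of 1.29 TPM, fell on each (-1.44, -2.72 and -2.35). IL27RA fell on LN323 (-1.20), and OSMR, at a mean of 1.79 TPM, did not pass.

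Among 10 JAK kinases and STATs other than STAT3, 5 rose on LN523, 4 on LN323 and 4 on LN521, and none fell. JAK1, the main kinase of gp130, rose by 1.94 on the log2 scale (standard error 0.20, edgeR adjusted p = 2.76e-11) on LN523, 1.71 on LN323 and 1.75 on LN521, from a mean of 19.9 to 22.1 TPM at day 2 to 73.0 to 96.2 TPM at day 22. JAK2 rose by 0.89, 0.81 and 0.90, and STAT2, a mediator of interferon responses, by 1.18, 1.34 and 1.10. STAT5B (0.28, 0.14 and 0.51) did not pass. The list had a median log2 fold change of 0.96, 0.74 and 0.83, beside the medians of 0.04, 0.02 and 0.12 over all genes.

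The 12 other inhibitors of the pathway were divided. On LN523 and LN323, 2 rose and 4 fell, and on LN521, 2 rose and 5 fell. PTPN11, the phosphatase SHP2, was the most abundant and fell by 0.46, 0.60 and 0.46 on the log2 scale. PTPN1, PIAS4 and SOCS7 did not pass on any matrix. The list's median log2 fold change was -0.41, -0.10 and -0.20 on LN523, LN323 and LN521.

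Genes known as targets of STAT3 in other cells were divided in direction. Of 14, 3 rose and 4 fell on LN523 and on LN323, and 2 rose and 5 fell on LN521. JUNB, an AP-1 transcription factor, rose by 2.54, 2.47 and 1.55 and CEBPD, a transcription factor induced by cytokines, by 2.54, 2.73 and 2.68 on LN523, LN323 and LN521. BCL3, a nuclear cofactor of NF-kappaB, rose on LN523 (2.40) and LN323 (1.81) and was at 1.05 on LN521 (edgeR adjusted p = 0.129). PIM1, a survival kinase, fell on each matrix (-1.82, -2.12 and -1.38), as did MCL1, an antiapoptotic BCL2 family gene (-0.57, -0.51 and -0.60). TFCP2L1, which in stem cells is a pluripotency factor downstream of LIF, fell from means of 4.13 to 4.93 TPM to 0.0973 to 0.296 TPM. TIMP1 and KLF4 did not pass. GFAP, an astrocyte and Müller glia filament that STAT3 activates, stayed near the limit of detection, with a mean of 0.59 TPM over the 27 libraries.

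Genes of other stimuli were counted beside these. Of 9 immediate early genes, 7 rose on LN523, 6 rose and 1 fell on LN323, and 3 rose on LN521. JUN rose by 1.14 to 1.69 and DUSP1, a MAP kinase phosphatase, by 1.14 to 1.43 over the matrices, while FOS rose on LN523 (2.44) and LN323 (1.74) and IER2 fell on LN323 (-0.69). Their summed level went from 91.4 to 262 TPM at day 2 to 224 to 421 TPM at day 22. Of 7 interferon-induced genes, 2 rose and 1 fell on LN523, and 1 rose and 1 fell on LN323 and on LN521. ISG15, their most abundant member, fell on each matrix (-1.60, -1.47 and -1.92), and IRF1, MX1 and IFIT1 did not pass. The part of these genes in the change of SOCS3 or SOCS1 was not tested.

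**Figure D2:**
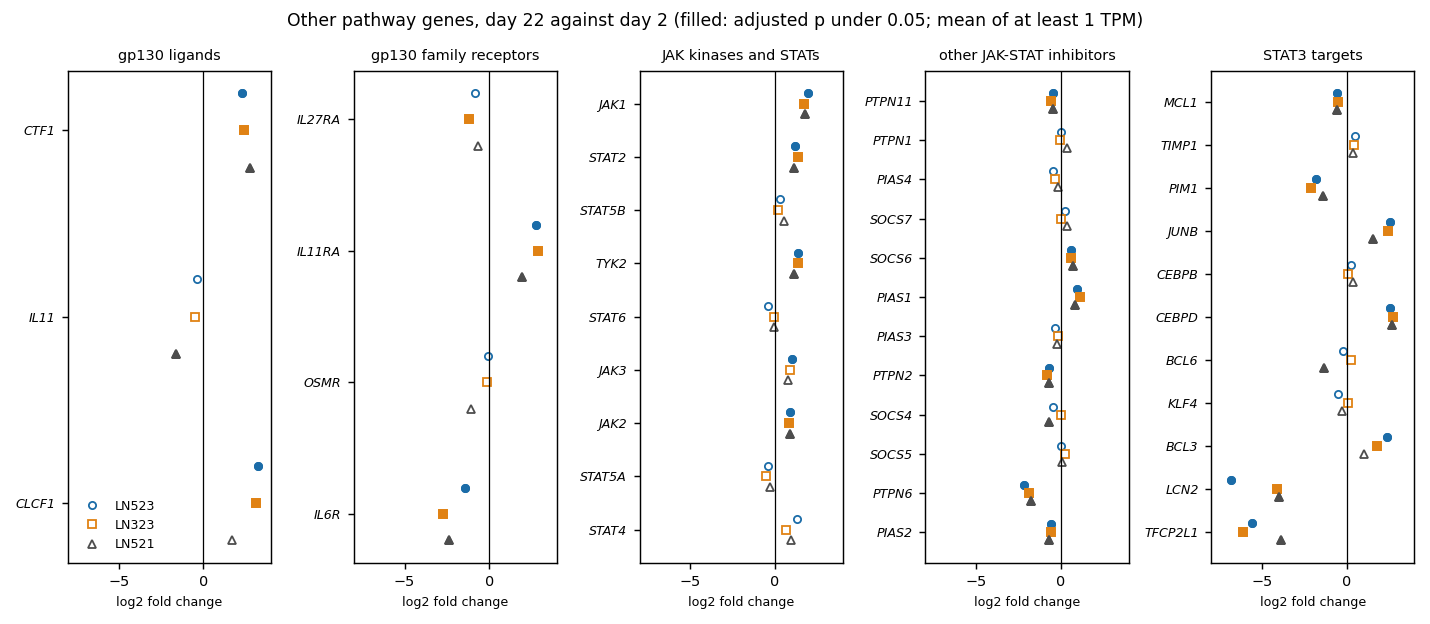
Log2 fold change from day 2 to day 22 (horizontal axes) of most further pathway genes with a mean of at least 1 TPM, ordered in each panel by abundance, by matrix (colour and symbol), with filled symbols for an adjusted p under 0.05. JAK1 lies between 1.71 and 1.94, IL11RA between 1.92 and 2.89, and the STAT3 target panel holds genes on both sides of 0.

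From day 22 to day 32, no member passed the test on LN523 (8 genes tested, 0.381% of all genes called), LN323 (9 genes, 0.0424%) or LN521 (8 genes, 0.268%) by edgeR, DESeq2 or limma on log2 TPM. At an unadjusted p under 0.05 there were 1, 1 and 3 genes, beside 1963, 1280 and 2763 of 44852 genes. On LN523 and LN521, SOCS3 had no test, since its day 32 libraries served for the choice. At day 32 it was at 125, 121 and 145 CPM on LN523, 178, 183 and 112 CPM on LN323, and 45.8, 66.1 and 54.2 CPM on LN521. On LN323 its log2 fold change from day 22 was 0.36 (95% interval -0.18 to 0.89). The log2 fold changes of the tested genes ran from -0.56 to 0.56 on LN523, -0.29 to 0.52 on LN323 and -0.63 to 0.73 on LN521. CNTFR at day 32 was at 116, 98.6 and 64.4 CPM on LN523, 106, 63.5 and 63.0 CPM on LN323, and 45.4, 54.5 and 69.5 CPM on LN521, overlapping day 22 on each matrix. IL6ST was at 171.7 to 252 CPM and LIFR at 34.6 to 73.1 CPM over the 9 libraries. The highest LIFR library was LN323 replicate 2, which also held 6713 TPM of mesenchyme markers and 240 TPM of interferon-induced genes, against 24.5 to 75.8 TPM in the other day 32 libraries.

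At day 2, SOCS genes were already higher on LN523 and LN323 than on LN521. SOCS3 and SOCS2 passed for LN523 (2 of 9 genes, both higher, beside 0.624% of genes called and 0.16% called higher), and SOCS3, SOCS1 and SOCS2 passed for LN323 (3 of 9, all higher, beside 2.5% and 1.13%). The libraries given above show no overlap of LN521 with LN523 or LN323 for SOCS3, where the highest LN521 library was at 19.8 CPM and the lowest of the other 6 at 25.9 CPM. Separation of this kind in the same direction was found for 6.24% of genes on LN523 and 9.4% on LN323. SOCS3 was 1.94-fold higher on LN523 (log2 fold change 0.96, standard error 0.22, edgeR adjusted p = 0.00581) and 2.42-fold higher on LN323 (1.28, 0.22, adjusted p = 3.8e-06). SOCS2 was 2.80-fold higher on LN523 (edgeR adjusted p = 0.000204) and 3.07-fold higher on LN323 (edgeR adjusted p = 1.25e-05), and SOCS1 was 2.57-fold higher on LN323 (edgeR adjusted p = 6.6e-05).

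These day 2 differences rested in part on single libraries, and DESeq2 called 2 of the 3 genes on LN323 and none on LN523, while limma on log2 TPM called none on either. In the limma fits, 0 of 38985 genes were called. On that scale the median gene moved by -0.14 for LN523 and -0.18 for LN323 against LN521. LN323 replicate 3 held the highest SOCS3, SOCS2 and SOCS1 levels among the LN323 libraries (80.2, 22.5 and 34.0 CPM), and LN523 replicate 2 the highest among those of LN523 (50.1, 22.8 and 25.1 CPM). Without LN323 replicate 3, the log2 fold changes against LN521 were 0.70, 0.85 and 0.81, and none passed (edgeR adjusted p = 0.282, 0.353 and 0.295). Without LN523 replicate 2, those of SOCS3 and SOCS2 were 0.58 and 0.80, and none passed. The SOCS3 call on LN523 was also lost without LN523 replicate 1, LN521 replicate 1 or LN521 replicate 3 (edgeR adjusted p = 0.351, 0.182 and 0.0525). Against LN521 at day 2, 2 of the 9 immediate early genes were lower on LN523 and 1 on LN323, with none higher, beside the 0.624% and 2.5% of all genes called. These were EGR1 and FOS on LN523 (-2.95 and -1.50) and EGR1 on LN323 (-3.27). EGR1 was named after its values were seen. Mesenchyme markers at day 2 summed to 44.6 to 95.2 TPM on LN523, 43.2 to 78.0 TPM on LN323 and 81.3 to 156 TPM on LN521.

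At day 22, SOCS3 and STAT3 were higher on LN523 than on LN521 (2 of 9 genes, beside 0.572% of genes and 0.179% higher), and SOCS3, STAT3 and IL6ST were higher on LN323 than on LN521 (3 of 9, beside 0.616% and 0.306%). SOCS3 was 2.62-fold higher on LN523 (log2 fold change 1.39, standard error 0.18, edgeR adjusted p = 7.82e-08) and 2.84-fold higher on LN323 (1.51, 0.18, adjusted p = 2.63e-09), in 3 of 3 lanes each. STAT3 was 1.65-fold higher on LN523 (edgeR adjusted p = 0.0136) and 1.69-fold higher on LN323 (edgeR adjusted p = 0.00531). IL6ST was 1.59-fold higher on LN323 (edgeR adjusted p = 0.0347) and 1.51-fold higher on LN523 (edgeR adjusted p = 0.0888). For these 3 genes every LN521 library was below every library of the other matrices at day 22, a separation found for 3.39% of genes on LN523 and 2.78% on LN323. CNTFR, LIFR, LIF, SOCS1, SOCS2 and CISH did not pass in either comparison.

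The replicate number is also the sequencing lane, and the day 22 calls depended on it as a block in the model. Without the replicate block, SOCS3 kept log2 fold changes of 1.32 on LN523 and 1.49 on LN323, but the edgeR adjusted p was 0.257 and 0.406, and STAT3 and IL6ST did not pass either (0.757 for STAT3 on LN523, and 0.635 and 0.898 for STAT3 and IL6ST on LN323). Without the block, 1 of 38609 genes was called for LN523 against LN521 and 0 for LN323 against LN521. The filterByExpr filter likewise gave an edgeR adjusted p of 0.94 and 0.915 for SOCS3, where 0 of 21535 genes were called in either comparison. DESeq2 called SOCS3 in both comparisons. Limma on log2 TPM called none of the 9 genes and 0 of 39020 genes in all. Mesenchyme markers at day 22 summed to 323 to 630 TPM on LN521, 453 to 2318 TPM on LN523 and 775 to 1613 TPM on LN323. Replicate 2 was the highest in these markers on LN523 and LN323 and the lowest on LN521, and their part in the differences was not tested. With replicate 2 left out of all 3 groups, the log2 fold change of SOCS3 was 1.05 on LN523 (edgeR adjusted p = 0.00116) and 1.48 on LN323 (edgeR adjusted p = 2.07e-06), and that of STAT3 on LN523 was 0.53 (edgeR adjusted p = 0.382). STAT3 on LN523 also did not pass without LN523 replicate 2, LN523 replicate 3 or LN521 replicate 3 (edgeR adjusted p = 0.429, 0.507 and 0.055), and on LN323 it did not pass after any of the 3 LN323 libraries was left out, at 0.60 to 0.89. The IL6ST call on LN323 was lost with DESeq2 (adjusted p = 0.186) and without any of the 3 LN323 libraries or LN521 replicate 2, and without LN323 replicate 1 the log2 fold change fell to 0.37.

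At day 32, the comparison that served for the choice of genes, the fitted level of SOCS3 was 2.34-fold higher on LN523 than on LN521 (log2 fold change 1.23, standard error 0.21) and 2.82-fold higher on LN323 than on LN521 (standard error 0.21), given without a test. Over all genes, 0.0609% were called for LN523 against LN521 and 0.117% for LN323 against LN521. The choice of genes rested in part on SOCS3 at this day, so neither these shares nor the standard errors support its differences. STAT3 at day 32 was at 256, 242 and 230 CPM on LN523, 269, 272 and 214 CPM on LN323, and 207, 146 and 151 CPM on LN521. The LN521 libraries lay below the others, with replicate 1 closest to them, a separation found for 3.64% of genes on LN523 and 3.52% on LN323. The log2 difference of STAT3 was 0.52 for LN523 against LN521, given without a test, and 0.58 for LN323 against LN521 (edgeR adjusted p = 0.402). Leaving out LN521 replicate 1 brought the latter to 0.72 and past the threshold (edgeR adjusted p = 7.51e-06), in a fit that called 5.57% of all genes. None of the 8 genes tested passed for LN323 against LN521 by edgeR, DESeq2 or limma, beside 0.117% of all genes called by edgeR. At an unadjusted p under 0.05 there was 1 gene, beside 1762 of 39377 genes. IL6ST overlapped between the matrices at day 32, with a log2 difference from LN521 of -0.01 for LN523 and 0.22 for LN323 (95% interval -0.13 to 0.57).

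Between LN523 and LN323, no member passed at day 2 (9 genes, 0.233% of all genes called), day 22 (9 genes, 0.013%) or day 32 (8 genes, 0%) by edgeR, DESeq2 or limma, with 1, 0 and 0 genes at an unadjusted p under 0.05. That threshold was met by 921 of 38650, 514 of 38609 and 747 of 39377 genes in the same order. The log2 differences of the members ran from -0.71 to 0.30, -0.22 to 0.40 and -0.48 to 0.45. At day 2, 2 genes passed without LN323 replicate 2, where 763 of 38205 genes were called, and 1 gene without LN523 replicate 2, where 343 of 38343 were called.

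SOCS3 was thus lowest on LN521 at each day. The order of its 9 group means ran from LN323 at day 32 (158 ± 39.5 CPM, SD, n = 3) through LN523 at day 32 (131 ± 12.9), LN323 at day 22 (126 ± 36.6) and LN523 at day 22 (112 ± 25.0) to LN521 at day 32 (55.3 ± 10.2). Below these stood LN323 at day 2 (48.3 ± 27.7), LN521 at day 22 (44.7 ± 15.6), LN523 at day 2 (36.5 ± 12.4) and LN521 at day 2 (18.0 ± 2.99). Neighbours in this order overlapped except at the steps from LN523 at day 22 to LN521 at day 32 and from LN523 to LN521 at day 2. Of 44852 genes, 50 (0.111%) had every LN521 library below every other library of the same day at days 2 and 22. SOCS3 was among them, as was RAI14, an actin-binding gene named after its values were seen. Both kept this order at day 32, but that part is the pattern for which SOCS3 was chosen, so no share is given for it.

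**Figure D3:**
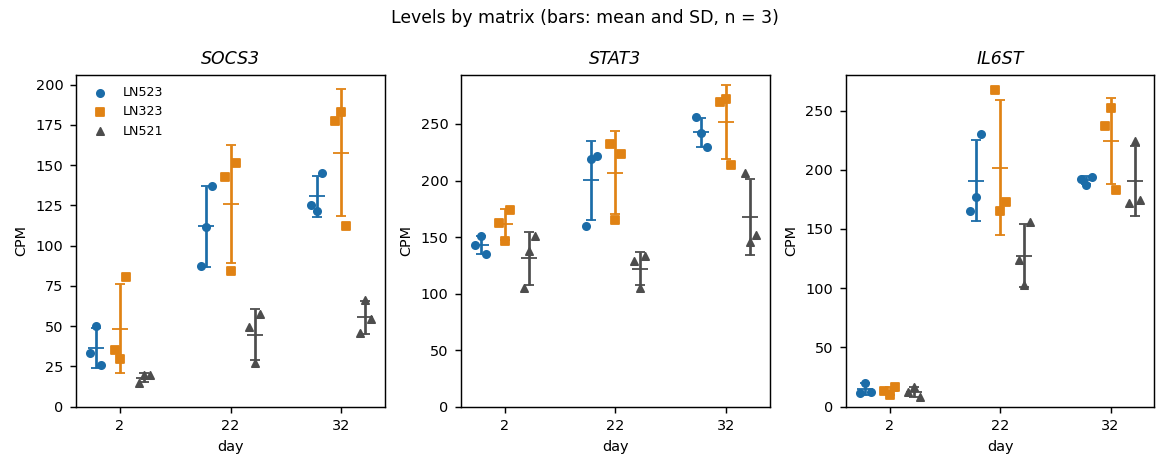
Levels of SOCS3, STAT3 and IL6ST (CPM, linear axes from 0) by day and matrix, with 1 symbol per library and bars for the mean and SD of 3 libraries. The LN521 libraries of SOCS3 lie between 14.6 and 66.1 and below the other matrices at each day, while those of IL6ST lie apart at day 22 and among the others at days 2 and 32.

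Profiles across the 27 libraries were compared by Pearson's r of log2(CPM + 0.5) over 16223 genes with a symbol and at least 1 CPM on average, as a description in which day and shared lanes enter. The gene most like STAT3 was SOCS3 (r = 0.864, and 0.598 for deviations from the group means). SOCS3 in turn was most like CALD1 (0.907), FAM171A1 (0.893), DACT1 (0.874), CHST3 (0.872) and NUAK1 (0.87). Profiles like CNTFR were those of ILDR2, ZEB1 and DENND2A (0.991 to 0.992), like IL6ST those of ZHX1, MEGF9 and PYGO1 (0.986 to 0.989), and like CISH those of PARVA, STOX2 and SMYD2 (0.97 to 0.973). LIF was most like IL32 (0.926), NIPAL4 and ARSI, LIFR most like RYBP (0.929), DDIT4L and BNC2, and SOCS1 most like C15orf39 (0.912), NECTIN1 and FHDC1. SOCS2 was most like SOCS2-AS1 (0.967), the opposite-strand gene that overlaps it, and then RDX and TXNDC15. Next to SOCS3, STAT3 was most like PLBD1 (0.841) and PMEPA1 (0.838). Among the 9 genes themselves, CNTFR, IL6ST and CISH had the closest profiles (r = 0.965 for CNTFR and IL6ST, 0.952 for IL6ST and CISH), but within groups the first of these was 0.01 and the second 0.37. For CNTFR and CISH, r was 0.924 over the libraries and -0.377 within groups. SOCS3 and IL6ST kept 0.68 within groups.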

How the data were processed

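Bulk RNA-seq of 27 libraries was used (TruSeq stranded total RNA kit with removal of ribosomal RNA, 150 bp read pairs). Reads were aligned by the authors to GRCh38 with STAR 2.5.2b. The authors counted genes with featureCounts 1.5.1, removed ribosomal and mitochondrial genes and deposited rounded counts without normalization. The strand setting of the counting is not given in the sources used here. Of the non-zero counts, 68.8% were even, so a count may not equal a fragment. The authors also deposited TPM values, which were made from the same counts with 1 length per gene. Genes were named and located with GENCODE 44.

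Counts were tested with edgeR 4.0.16 in R 4.3.3 (quasi-likelihood test, TMM, genes with more than 1 count in sum, lane as a block as in the study's model, Benjamini-Hochberg over all genes, threshold 0.05). Time contrasts and interactions used all 27 libraries and matrix contrasts the 9 libraries of the day. The standard error is the log2 fold change divided by the square root of F, and intervals use 1.96 standard errors. Total counts had a median of 39862487, and the biological coefficient of variation was 45.1% over all libraries and 37.4% to 44.4% within days, so spread between replicates limited precision. Libraries of a group differed by a chi-square of at least 10.5 per gene, so none was counted as a repeat. The fits were tested on simulated data.

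Same-lane libraries of LN523 and LN323 deviated together at day 22 (r = 0.452 to 0.822 over 13476 genes) and day 32 (0.664 to 0.731), but not at day 2 (-0.705 to 0.108), and mean r with LN521 libraries ran from -0.110 to 0.208.

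The 9 genes and the pathway and marker lists were chosen with earlier results of these data known. The text names, of each pathway list, the 4 genes with the highest mean TPM and a few fixed genes, gives counts for the rest, and names for each of the 9 genes the 3 (5 for SOCS3) most alike. Some genes that this rule names are not reported here. Other names are said to be chosen after seeing values. Alternatives were DESeq2 1.42.0, limma 3.58.1 on log2(TPM + 1) or log2(TPM + 0.1), RLE normalization, filterByExpr, no block, other sets of libraries and leaving out each replicate. The deposited data of other assays of the study were not used here.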

Additional observations from a re-analysis of the deposited data

How the results depend on the processing

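The 46 fold changes of the 9 genes were computed under 534 alternatives in all, of which 443 kept the result, 73 lost a call, 17 gained one and 1 reversed. Keeping a result meant the same direction and side of the threshold. For any fold change given without a test, it meant the same direction and a shift within the spread between libraries. Any such values are part of the totals. The totals are therefore no support for the SOCS3 difference at day 32 that served for the choice. The reversal was STAT3 on LN521 from day 2 to day 22, which was not called and ranged from -0.28 to 0.031 when single replicates were left out, the highest being without replicate 2. The count of called genes from day 2 to day 22 on LN523 was 8 and ranged from 5 (without replicate 3) to 9 with replicates left out, 9 being the value without LN521 day 22 replicate 1, which was added after seeing the data. Those 2 fits called 7067 of 43692 and 9863 of 44667 genes. Interactions went from 0 to between 0 and 2 genes for LN323 against LN521 and between 0 and 1 for LN523 against LN521. For LN323 against LN521 at day 2, 3 genes were called, against 1 with all 27 libraries in the fit, 0 with filterByExpr, 0 with limma at either pseudocount and 0 to 5 without single replicates. At day 22, 3 were called, against 1 with all 27 libraries, 0 with filterByExpr, 0 with limma at either pseudocount, 0 without the replicate block and 1 to 4 without single replicates. At day 32, 0 were called, against 0 to 1. For LN523 against LN521 at day 2, 2 were called, against 0 with DESeq2, all 27 libraries, filterByExpr or limma, and 0 to 3 without single replicates. At day 22, 2 were called, against 1 with DESeq2, 1 with all 27 libraries, 0 with filterByExpr or limma, 0 without the replicate block, 1 without replicate 2 in all groups (added after seeing the data) and 1 to 3 without single replicates. LN523 against LN323 at day 2 went from 0 to between 0 and 2. Fits without single replicates also varied in their calls over all genes. For LN323 against LN521 they called 124 of 38265 to 3439 of 38205 genes at day 2. At day 22 these were 13 of 38273 to 628 of 37797, and at day 32 0 of 38719 to 2143 of 38504. For LN523 against LN521 they called 28 of 37105 to 890 of 38367 at day 2. At day 22 these were 17 of 38255 to 511 of 38024. With filterByExpr or limma, 0 genes of the whole table were called in any contrast of matrices. At day 22 this was 0 of 21535 and 0 of 39020 genes. The lost calls in these settings were thus not particular to the 9 genes, and their cause was not tested. Over all genes, DESeq2 called more than edgeR between matrices at day 32 (823, 823 and 799 against 0, 24 and 46 for LN523 against LN323, LN523 against LN521 and LN323 against LN521) and at day 22 against LN521 (486 against 221 for LN523 and 626 against 238 for LN323). From day 2 to day 22, the standard errors of SOCS1, SOCS2, LIF and CISH were 0.40 to 0.45 on the log2 scale, against 0.19 to 0.34 for the other 5 genes.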
